A study of Mus musculus with 5 samples.

Results

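A set of 10 genes for the movement and anchoring of lymphocytes in tissues was examined for H3K27ac, a histone acetylation found at active promoters and enhancers, in Treg cells of the large intestine. They are the chemokine receptor genes Ccr4, Ccr8, Ccr6, Cxcr4 and Cxcr5, the oxysterol receptor gene Gpr183, the intestinal homing receptor gene Gpr15, and the integrin subunit genes Itga4, Itgb7 and Itgae. A gene window was the GENCODE M21 span of the gene on mm10 extended by 20 kb on each side, and all peaks that overlapped it were summed. The 10 genes were taken by name from 21938 protein-coding genes, with no threshold on a measured value but with earlier results of these data known. Their windows held 160 of the 124158 peaks in the table, between 9 peaks at Ccr4 and Ccr6 and 24 peaks at Itga4, and no peak was shared by 2 windows. H3K27ac had been profiled by CUT&Tag, in which an antibody brings a transposase to the mark, in CD3+CD4+ cells positive for Foxp3-YFP that were sorted from C57BL/6 mice of 2 weeks. Ctrl mice were Foxp3Cre-YFP Setd2 f/+ and KO mice were Foxp3Cre-YFP Setd2 f/f, so both groups carried the Cre, which acts in every cell that expresses Foxp3, and at least 1 floxed allele of Setd2, the H3K36 methyltransferase gene. Each group had 2 libraries, each made from cells pooled over several littermates of both sexes, so an animal's own value cannot be seen. An IgG control made from pooled genotypes was not analysed here.

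Chemokine receptors and their relatives are G protein-coupled receptors that steer a cell along a gradient of a secreted ligand, and integrins are heterodimers that then hold it to vessel walls, matrix or neighbouring cells. Ccr4 reads Ccl17 and Ccl22, Ccr8 reads Ccl1, Ccr6 reads Ccl20, Cxcr4 reads Cxcl12 and Cxcr5 reads Cxcl13, while Gpr183 responds to oxysterols and Gpr15 to a peptide made by the gut epithelium. Itga4 pairs with Itgb7 to bind Madcam1 on intestinal vessels, and Itgae pairs with the same Itgb7 to bind E-cadherin on epithelial cells. Treg cells are known to use Gpr15 to enter the large intestine, and Ccr4 and Ccr8 are typical of tissue Treg cells.

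Library totals ranged from 2395002 to 4712473 counts in peaks, and 1 CPM, the unit used here for counts scaled to library size after TMM, stood for 2.21 to 4.17 counts. Promoter peaks of all 6 Treg and T cell markers (Foxp3, Il2ra, Ctla4, Ikzf2, Cd3e and Cd4) were strong, with a median of 132 CPM and summed levels of 712 and 795 CPM in Ctrl and 813 and 1000 CPM in KO, both KO libraries above both Ctrl libraries. Of 19 markers of myeloid, epithelial, stromal and endothelial, and CD8 T or NK cells, 9 had no promoter peak and 2 exceeded 10 CPM, namely Cd14 and Pecam1, the last of which T cells also express. The summed myeloid list lay between 12.5 and 33.9 CPM, the epithelial list between 14.0 and 21.1 CPM, and the CD8 T and NK list between 6.25 and 11.3 CPM, with overlapping groups in each. The stromal and endothelial list, nearly all of it Pecam1, held 80.5 and 108 CPM in Ctrl and 88.7 and 109 CPM in KO. The part of such cells in any difference below was not tested. The promoter peak of Setd2 measured 26.2 and 25.0 CPM in Ctrl and 27.2 and 33.3 CPM in KO, a peak that does not read the floxed exons and so does not check the deletion.

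The start sites of these genes differ in sequence and in how the mark sits on them, and 5 of them are printed for that contrast: Ccr4, Gpr183 and Itgb7, whose starts lay inside peaks of over 13 kb, Cxcr4, whose start lay in a compact peak, and Ccr6, whose first start lay outside every peak. Each line gives the 250 bases before the RefSeq start in GRCm38.p6, the assembly of mm10, with capitals marking any match to the 13 motifs spelled out below.
Ccr4, chr9:114496545-114496794, minus strand: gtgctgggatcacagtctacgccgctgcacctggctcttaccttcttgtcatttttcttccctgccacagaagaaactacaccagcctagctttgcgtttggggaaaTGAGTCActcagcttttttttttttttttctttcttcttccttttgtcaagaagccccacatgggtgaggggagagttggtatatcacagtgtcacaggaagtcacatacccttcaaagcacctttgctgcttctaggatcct
Gpr183, chr14:121965194-121965443, minus strand: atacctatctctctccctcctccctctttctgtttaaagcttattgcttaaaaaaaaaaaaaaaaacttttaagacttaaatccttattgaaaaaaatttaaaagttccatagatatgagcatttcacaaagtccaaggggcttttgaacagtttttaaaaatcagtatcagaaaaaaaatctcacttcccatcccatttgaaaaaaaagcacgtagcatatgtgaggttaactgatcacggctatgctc
Itgb7, chr15:102231936-102232185, minus strand: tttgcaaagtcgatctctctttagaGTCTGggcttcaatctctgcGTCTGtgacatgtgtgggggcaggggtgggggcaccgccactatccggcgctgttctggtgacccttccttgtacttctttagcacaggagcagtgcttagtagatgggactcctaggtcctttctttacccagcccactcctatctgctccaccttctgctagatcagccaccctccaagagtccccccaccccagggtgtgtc
Cxcr4, chr1:128592300-128592549, minus strand: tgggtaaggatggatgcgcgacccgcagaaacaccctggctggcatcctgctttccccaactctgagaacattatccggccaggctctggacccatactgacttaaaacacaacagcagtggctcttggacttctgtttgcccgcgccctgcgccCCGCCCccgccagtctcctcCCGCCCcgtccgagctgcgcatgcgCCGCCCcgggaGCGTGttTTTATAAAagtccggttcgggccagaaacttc
Ccr6, chr17:8235793-8236042, plus strand: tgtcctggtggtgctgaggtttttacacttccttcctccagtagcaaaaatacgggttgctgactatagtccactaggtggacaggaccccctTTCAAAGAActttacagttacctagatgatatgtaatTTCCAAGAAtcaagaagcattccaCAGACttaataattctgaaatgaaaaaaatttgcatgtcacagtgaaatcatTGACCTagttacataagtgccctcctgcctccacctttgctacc

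RefSeq promoter windows of 300 bases (250 before and 50 after the start) were at hand for 8 members, with 2 entries for Ccr6, and Cxcr5 and Itgae had no entry. Cxcr4 had the only CpG-rich window of the 5 printed, with 20 CpG against a median of 7 over 32851 promoters and 59.3% GC. It held 3 GC boxes and a stretch that matched the TATA box on both strands. Gpr183 was AT-rich at 35.3% GC, in the lowest 4.3% of all promoters, and matched none of the motifs. Ccr4, at 46.3% GC, held a single match, to the AP-1 motif. The motifs were searched on both strands, and the share of all promoters that held each is given in brackets. They were CCGGAAGT for ETS factors (3.89%), TGTGGT for RUNX factors (16.8%), TGANTCA for AP-1 (7.81%), AGATAA for zinc-finger factors of the Gata3 family (11.2%), TTCNNNGAA for STAT factors (8.3%), TGTTTAC for forkhead factors (3.65%) and AGGTCA as the nuclear receptor half-site (16.3%). The others were GCGTG as the xenobiotic response core (32.4%), CAGAC for SMAD factors (49.6%), CCACACCC for KLF factors (3.56%), TATAAA as the core promoter box of that name (13.6%), CCAAT (37.4%) and GGGCGG as the GC box (35.7%). SMAD letters were in 5 of the 8 members, RUNX letters in Gpr15, Ccr6 and Itga4, and AP-1 letters in Gpr15 and Ccr4. ETS and forkhead letters were in none of them. The 300-base window lay wholly inside a peak at every matched member except the first start of Ccr6.

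No member gained or lost H3K27ac in KO Treg cells by a margin that passed the test of KO against Ctrl without covariates. All 10 windows had a higher mean in KO than in Ctrl, by 1.05-fold at Ccr8 to 1.33-fold at Cxcr5, and the median log2 fold change was 0.20, where it was -0.0058 over 16106 tested windows. None of the 10 had an adjusted p below 1 by the quasi-likelihood test of edgeR (Benjamini-Hochberg adjustment over all tested windows), and 0% of all windows were called. At an unadjusted p under 0.05 the count was 0 of 10, where 2.54% of all windows passed, and DESeq2 gave 0 of 10 as well. The KO libraries were both above the Ctrl libraries at 5 members (Ccr4, Ccr6, Gpr183, Itga4 and Itgae), and the groups overlapped at the other 5. Over all tested windows 11.9% had both KO libraries above both Ctrl libraries, 16.8% had both below, and 49.3% had a log2 fold change above 0.

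**Figure D1:**
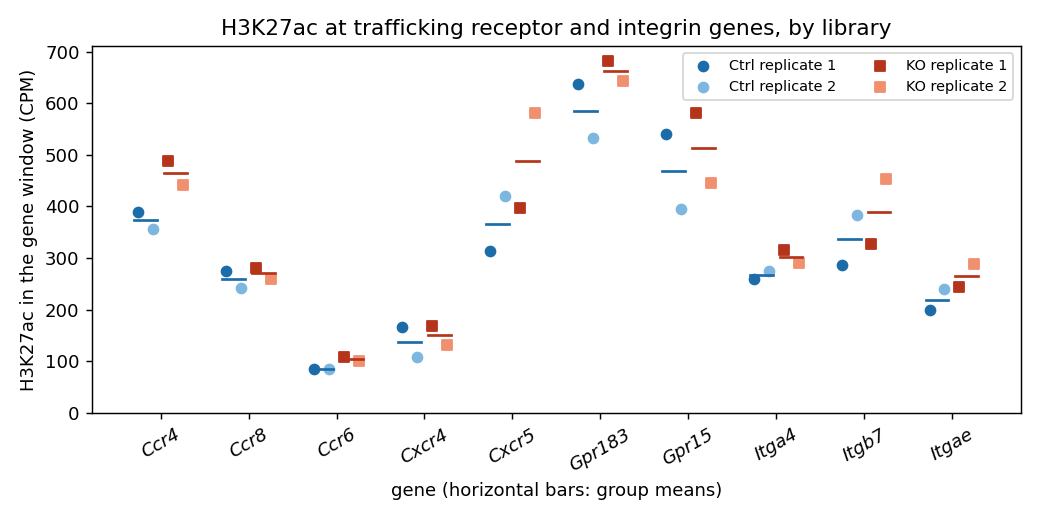
H3K27ac in the window of each gene (y axis, CPM; linear scale from 0), with 1 point per library (circles, Ctrl; squares, KO) and horizontal bars for the mean of 2 libraries. At Gpr183 the 4 libraries lie between 532 and 681 CPM and at Ccr6 between 84.6 and 108 CPM, and the KO points are above both Ctrl points at 5 genes.

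The direction shared by the members has to be read against their level, because strong windows leaned to KO throughout the genome. When the tested windows were split into 10 equal classes (deciles) by mean CPM, the share with a higher value in KO was between 38.8% and 49.3% in the lower 8 deciles, 64% in the ninth and 82.4% in the top decile, where the median log2 fold change was 0.18. Of the members, 7 were in the top decile, Itgae was in the ninth, Cxcr4 in the eighth and Ccr6 in the seventh. In the top decile both KO libraries exceeded both Ctrl libraries in 26.5% of windows, and in 3 of the 7 members. Itgae and Ccr6 also had both KO libraries above, in deciles where 15.5% and 8.51% of windows did. Cxcr4 did not, in a decile where 9.81% did. With an offset fitted to abundance, the median of the members was 0.096, 7 of 10 were higher in KO, and Gpr15, Ccr8 and Gpr183 had log2 fold changes of -0.048, -0.043 and -0.037. With at least 50 counts required in 2 libraries, which moved the median of all windows by -0.11, Ccr8 was at -0.048. Without Ctrl replicate 2, Gpr15, Ccr8 and Cxcr4 were at -0.078, -0.021 and -0.16, and without KO replicate 1 they were at -0.09, -0.0073 and -0.09. Without KO replicate 2, Itgb7 was at -0.072. The other members kept a positive value under every alternative run.

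**Figure D2:**
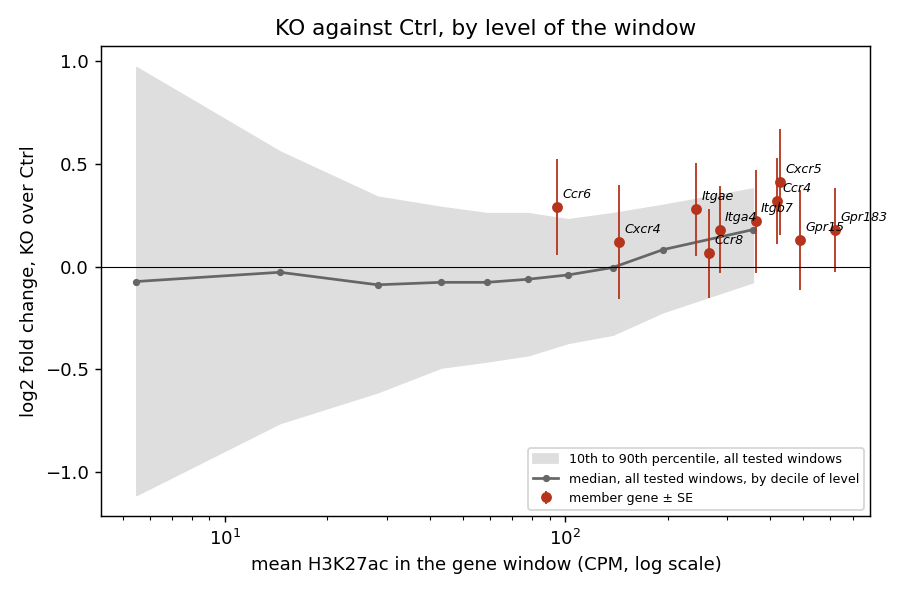
Log2 fold change of KO over Ctrl (y axis) against the mean CPM of the window (x axis, log scale), with the 10 members in red (bars, SE). The grey line is the median and the grey band the 10th to 90th percentile of all tested windows in each decile of level; the line ends at 0.18 in the top decile, and Cxcr5 at 0.41 and Ccr4 at 0.32 are the highest of the members in that decile.

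Among the chemokine receptors, Ccr4 carried the most H3K27ac per length. Its window (gene at chr9:114490316-114504916) measured 390 and 357 CPM in Ctrl and 487 and 442 CPM in KO, means of 373 ± 23.1 and 464 ± 32.1 (SD, n = 2 each). The groups did not overlap, and the log2 fold change was 0.32 (SE 0.208, 95% interval -0.15 to 0.78, unadjusted p of 0.162). Of that signal, 50.6% came from a single peak of 14.2 kb, from the start site through the gene, that ranked 77th in width of all 124158 peaks. It held 202 and 195 CPM in Ctrl and 223 and 229 CPM in KO, a log2 fold change of 0.19 (SE 0.253). Further downstream, inside Glb1, lay a 7.62 kb peak over coding and untranslated exons of that gene and a 1.2 kb peak in an intron of it. Their values are given with the peaks that had the smallest p.

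Ccr8 is short, and its TSS peak of 4.47 kb, at chr9:120090243-120094708, covered nearly all of the gene at chr9:120092114-120094906. The window measured 275 and 242 CPM in Ctrl and 281 and 260 CPM in KO, with overlapping groups and a log2 fold change of 0.066 (SE 0.216, 95% interval -0.42 to 0.55). The TSS peak alone held 109 and 93.1 CPM in Ctrl and 115 and 105 CPM in KO, 39.9% of the window. Ccr8 was thus the member with the smallest difference between genotypes. A peak at 17.6 kb upstream, nearer to the start of Cx3cr1, held 57.0 and 43.2 CPM in Ctrl and 44.7 and 42.2 CPM in KO.

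Ccr6 had the weakest window of the members. It measured 84.6 and 85.1 CPM in Ctrl and 108 and 99.7 CPM in KO, so the KO libraries were both higher, with a log2 fold change of 0.29 (SE 0.233, 95% interval -0.23 to 0.82, unadjusted p of 0.239). The first start at chr17:8236043 lay in a gap between peaks, and the strongest peak, 3.75 kb in the first intron with its centre 2.93 kb downstream, held 34.8 and 41.7 CPM in Ctrl and 44.0 and 38.6 CPM in KO. A later intronic peak, 9.93 kb downstream, held 3.62 and 8.93 CPM in Ctrl and 10.4 and 15.1 CPM in KO, a log2 fold change of 0.99 (SE 0.531, unadjusted p of 0.0632). That peak rested on 8 and 30 counts in Ctrl and 28 and 63 counts in KO. No other protein-coding gene has its start in the Ccr6 window.

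Cxcr4, the receptor that retains cells in the bone marrow and lymphoid tissue, varied more between libraries of a genotype than between genotypes. Its window (gene at chr1:128588199-128592293) held 167 and 109 CPM in Ctrl and 169 and 131 CPM in KO, and the groups overlapped at a log2 fold change of 0.12 (SE 0.277, 95% interval -0.5 to 0.75). The compact TSS peak of 3.3 kb took 42.1% of the signal, with 74.2 and 43.2 CPM in Ctrl and 66.7 and 58.7 CPM in KO.

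Cxcr5, the follicle homing receptor, had the largest fold change of the 10 windows in the reported fit, and also a wide spread. Its window (gene at chr9:44511787-44561877) held 313 and 420 CPM in Ctrl and 396 and 580 CPM in KO, with a log2 fold change of 0.41 (SE 0.258, 95% interval -0.17 to 0.99, unadjusted p of 0.143). KO replicate 1 fell between both Ctrl libraries, so the groups overlapped. The log2 fold change was 0.65 without Ctrl replicate 2 and 0.65 without KO replicate 1. It was 0.21 without Ctrl replicate 1, below the 0.45 of Cxcr4, the 0.37 of Ccr4 and Gpr15, the 0.31 of Gpr183 and the 0.28 of Ccr6. Without KO replicate 2 it was 0.076, below every other member except Itgb7 at -0.072, and Ccr4 was highest at 0.35. With the offset fitted to abundance it was 0.23, below the 0.36 of Ccr6. With the gene span not extended it was 0.36, below the 0.44 of Gpr15. Its place at the top thus rested on Ctrl replicate 1 and KO replicate 2, and on the scaling and the window. All 20 tested peaks of the window had a log2 fold change above 0, from 0.066 to 1.29, and 9 of them had both KO libraries above both Ctrl libraries. Over all tested peaks 49.2% were above 0 and 16.9% had both KO libraries above, and 74.2% of those in the top decile of level were above 0. The peak at the downstream start site (3.58 kb) held 24.4 and 38.4 CPM in Ctrl and 46.6 and 48.6 CPM in KO, a log2 fold change of 0.59 (SE 0.324, unadjusted p of 0.0702). The strongest peak, 6.91 kb over coding and untranslated exons at the downstream end, held 67.0 and 83.6 CPM in Ctrl and 70.4 and 110 CPM in KO. Part of the window belongs to Bcl9l, whose own promoter peaks took 5.63% of the signal. Peaks of 3.56 kb and 4.33 kb that were classed as flank also overlapped Bcl9l. The first held 36.2 and 61 CPM in Ctrl and 39.5 and 84.1 CPM in KO. The other held 43.9 and 53.3 CPM in Ctrl and 54.4 and 83.9 CPM in KO.

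Gpr183 and Gpr15 were the densest windows of the 10 members, each at 11.8 CPM per kb of window, above 99.7% of the tested windows. Gpr183 lies inside an intron of Ubac2 at chr14:121952551-121965195, and its window held 637 and 532 CPM in Ctrl and 681 and 642 CPM in KO. Both KO libraries were higher, by 0.18 on the log2 scale (SE 0.204, 95% interval -0.28 to 0.64). A single 14.3 kb peak from upstream of the start across the gene, the 68th widest and 65th strongest of all peaks, held 291 and 269 CPM in Ctrl and 326 and 319 CPM in KO. It was followed downstream by peaks of 6.63 kb with 95.5 and 99.7 CPM in Ctrl and 127 and 113 CPM in KO, and of 4.23 kb with 74.6 and 59.2 CPM in Ctrl and 79.0 and 76.9 CPM in KO, the latter nearest to the start of Gpr18.

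At Gpr15 most of the mark lay away from the gene. Its window (gene at chr16:58717433-58719070) held 541 and 394 CPM in Ctrl and 581 and 445 CPM in KO, with overlapping groups and a log2 fold change of 0.13 (SE 0.242, 95% interval -0.41 to 0.68). The TSS peak of 2.86 kb held 29.4 and 25.0 CPM in Ctrl and 39.5 and 34.0 CPM in KO, a log2 fold change of 0.44 (SE 0.341, unadjusted p of 0.202). The strongest peak, 6.58 kb wide and 16.4 kb downstream in introns of Cpox, held 170 and 143 CPM in Ctrl and 195 and 141 CPM in KO, which is 33.1% of the window against 13% for the peaks near the start of Gpr15. A 6.37 kb peak at the start of the neighbour Cldnd1 held 91.4 and 66.4 CPM in Ctrl and 121 and 97.3 CPM in KO. The table does not tell which gene a peak serves.

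**Figure D3:**
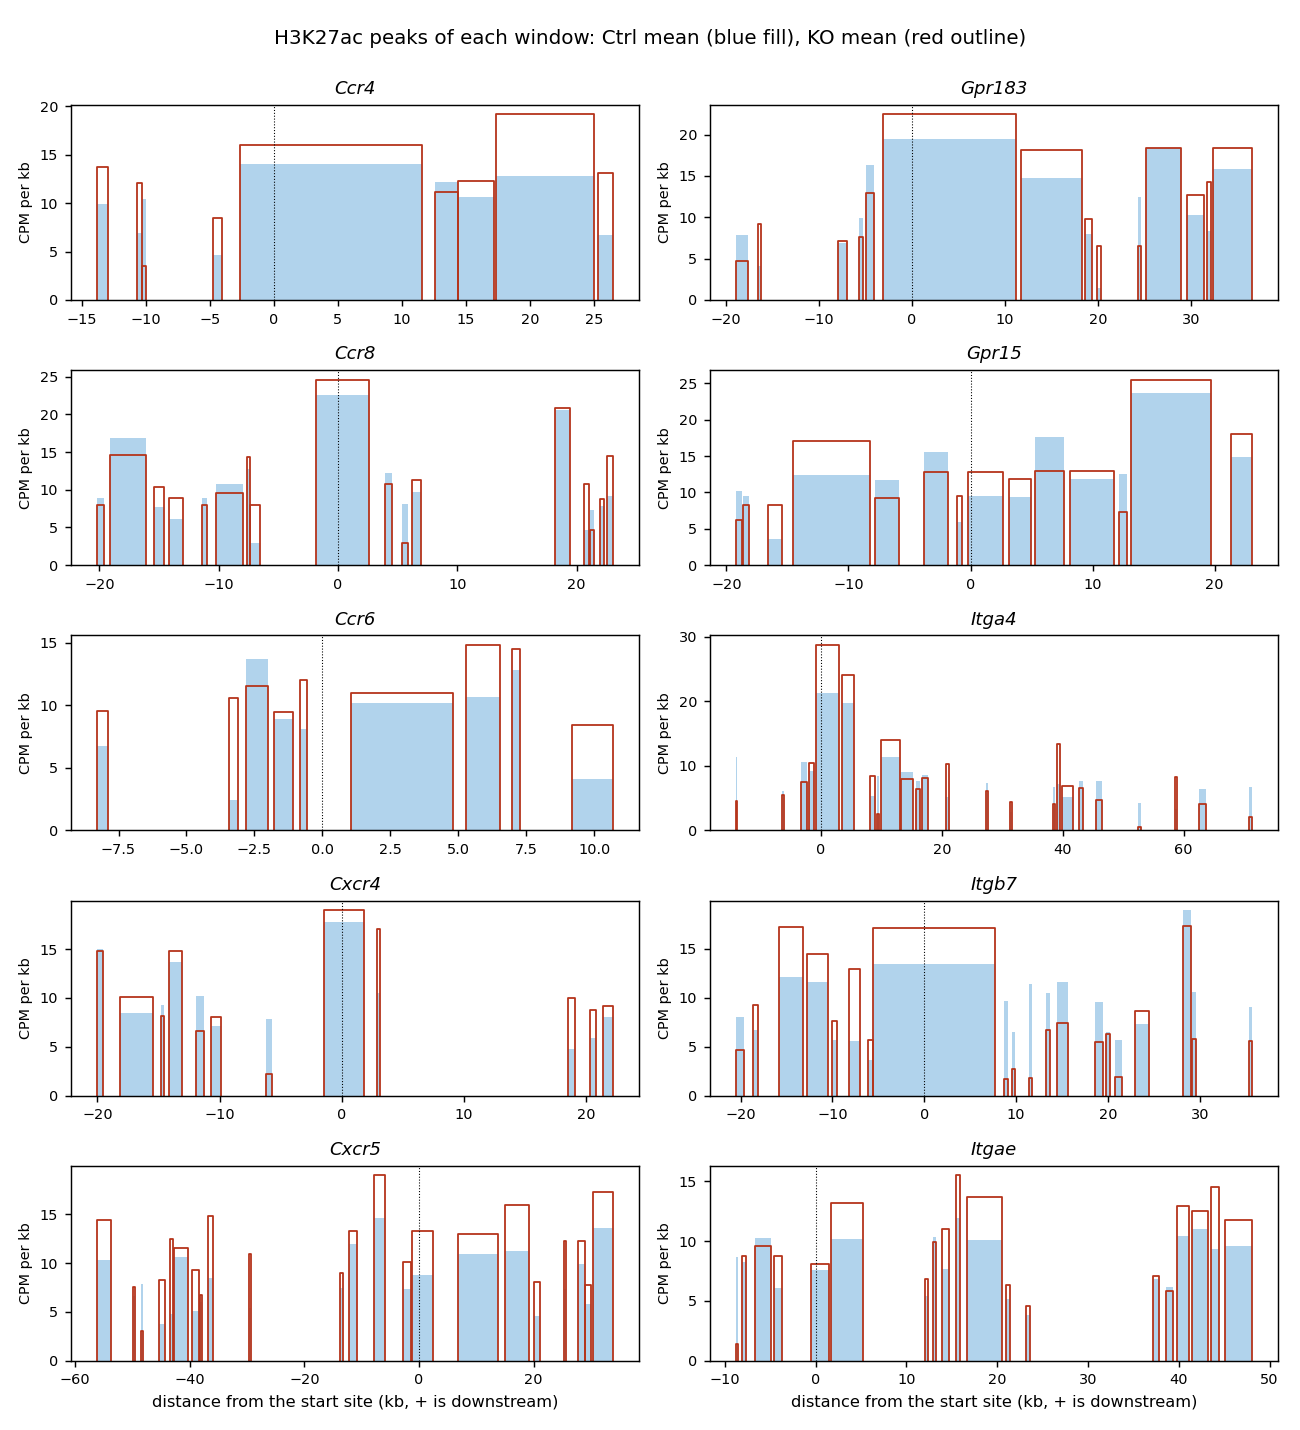
Peaks of the 10 windows by distance from the start site (x axis, kb; positive is downstream along the gene; ranges differ between panels), with height as CPM per kb of peak (y axis) for the mean of the Ctrl libraries (blue fill) and of the KO libraries (red outline). Ccr4, Gpr183 and Itgb7 have peaks of over 13 kb across the start, Ccr6 has none there, and the tallest peak at Gpr15 is 16.4 kb downstream.

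The integrin genes split by how the mark was spread. Itgb7, the subunit shared by both intestinal heterodimers, had a 13.2 kb peak over its start site that reached into Rarg and held 55.5% of the window. The window (gene at chr15:102215995-102231944) measured 287 and 384 CPM in Ctrl and 327 and 453 CPM in KO, with overlapping groups and a log2 fold change of 0.22 (SE 0.252, 95% interval -0.35 to 0.78). The 13.2 kb peak followed the same order, with 137 and 217 CPM in Ctrl and 176 and 276 CPM in KO, a log2 fold change of 0.35 (SE 0.255, unadjusted p of 0.164). Of its 14 tested peaks, 7 were higher and 7 lower in KO, near the background of 49.2% higher. Both KO libraries were below both Ctrl libraries at 4 of the 14 tested peaks of the window, where 16.4% of all tested peaks were. Of the 7 lower peaks, 6 lay toward the last exons of Itgb7 and toward Zfp740.

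Itga4, the partner of Itgb7 in binding Madcam1, had its mark over the start and the first introns. Its window (gene at chr2:79255426-79333123) held 259 and 274 CPM in Ctrl and 315 and 290 CPM in KO, without overlap, a log2 fold change of 0.18 (SE 0.212, 95% interval -0.3 to 0.66). The TSS peak of 3.82 kb held 62.9 and 99.7 CPM in Ctrl and 95.8 and 124 CPM in KO, so KO replicate 1 was below Ctrl replicate 2. Gene body peaks took 58.5% of the window.

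Itgae, the partner of Itgb7 in binding E-cadherin, had no dominant peak, and its strongest reached 57.5 CPM in KO replicate 2. Its window (gene at chr11:73090583-73147446) held 199 and 239 CPM in Ctrl and 244 and 288 CPM in KO, without overlap, a log2 fold change of 0.28 (SE 0.226, 95% interval -0.23 to 0.79, unadjusted p of 0.247). The gap between Ctrl replicate 2 and KO replicate 1 was small beside the distance between replicates. An intronic peak 3.49 kb downstream of the start held 32.1 and 39.3 CPM in Ctrl and 43.2 and 49.4 CPM in KO, and a 3.87 kb peak over internal coding exons, 18.6 kb downstream, held 33.5 and 44.9 CPM in Ctrl and 48.4 and 57.5 CPM in KO. Both had KO above Ctrl in all libraries, with unadjusted p of 0.247 and 0.17. Haspin, an intronless gene inside Itgae, added a peak of 28 and 28.6 CPM in Ctrl and 33.5 and 35.9 CPM in KO.

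Per kb of window, Gpr183 and Gpr15 (11.8 CPM per kb each) were followed by Ccr4 at 7.67, Itgb7 at 6.48, Ccr8 at 6.18, Cxcr5 at 4.74, Cxcr4 at 3.27, Itgae at 2.5, Itga4 at 2.42 and Ccr6 at 1.55 CPM per kb. The 5 densest were above 97.1% to 99.7% of all tested windows, and Ccr6 was above 66.5% of them. Neighbours in this order were apart in all 4 libraries at 2 steps. Gpr15 (9.46 to 14.0 CPM per kb) stood above Ccr4 (6.54 to 8.92), and Itga4 (2.2 to 2.67) above Ccr6 (1.38 to 1.77). The libraries of the other neighbours overlapped, as with Itgb7 (5.13 to 8.09) and Ccr8 (5.66 to 6.56), so their order is not settled. Cells were pooled, so fewer cells with the mark and less of the mark per cell cannot be told apart.

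Each window was divided by position into peaks within 3 kb of an own start site, other peaks over the gene, peaks within 3 kb of the start of another coding gene, and the rest as flank. The peaks near the own start held 93.8% of the signal at Ccr6, which has many annotated starts, 55.5% at Itgb7 and 50.6% at Ccr4, and from 13% to 48.3% at the others. The gene body prevailed at Itga4 (58.5%) and Itgae (51.9%), and the flank at Gpr15 (63.6%) and Cxcr4 (55.2%). Peaks at the starts of other genes reached 27.1% at Itgb7 and 23.4% at Gpr15. Summed over the members, the own start peaks held 36.2% and 39.5% in Ctrl and 37.5% and 39.8% in KO, and the exact permutation test gave p = 0.667 (two-sided, where 0.33 is the smallest p for groups of 2).

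**Figure D4:**
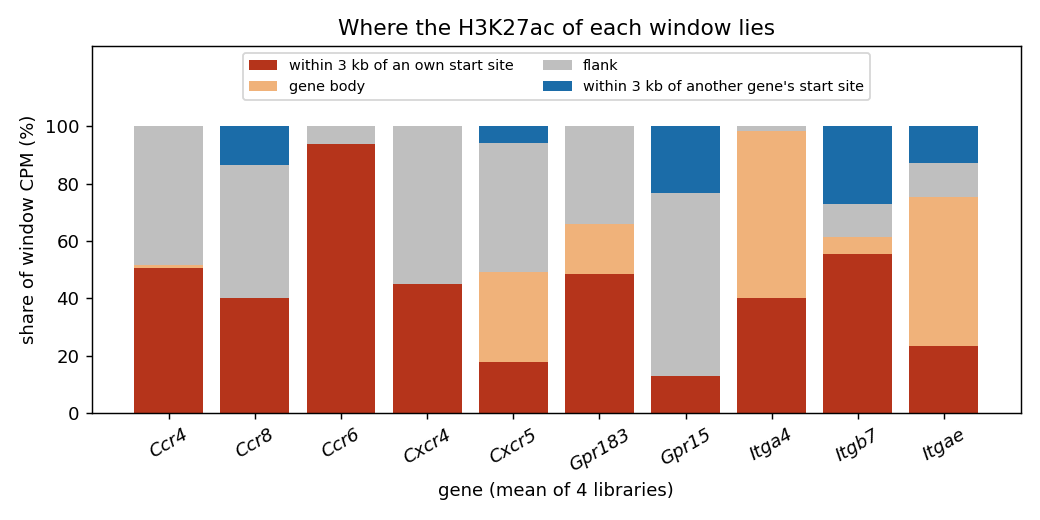
Share of the window's CPM (y axis, percent, mean of 4 libraries) by position of the peak for each gene. Own start peaks hold 93.8% at Ccr6 and 13% at Gpr15, gene bodies 58.5% at Itga4, and flanks 63.6% at Gpr15.

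Of the 160 member peaks, 132 passed the count filter of 10 counts in 2 libraries and 28 did not. Among the 132, 96 had a higher value in KO (72.7%) and 36 a lower one, where 49.2% of all 74550 tested peaks were higher. Without KO replicate 1 the share was 52.9%, against 45.3% of all peaks tested in that fit, and without each of the other libraries it was 65.3% to 73.8%, against 49.6% to 51.4%. Over all peaks the share also differed by level. In the top decile of mean CPM 74.2% of all peaks were higher in KO, and 30 member peaks were in that decile, 28 of them higher. Of the 102 member peaks below the top decile, 68 were higher, in deciles where 42.1% to 59.4% of all peaks were. The part of level in the members' lean was not tested. Both KO libraries exceeded both Ctrl libraries at 38 member peaks (28.8%, background 16.9%), and both lay below at 8 (6.06%, background 16.4%). Of those 8, 4 were in the Itgb7 window and 2 each in the windows of Itga4 and Gpr183. By class, 23 of 26 tested peaks near an own start were higher in KO, 19 of 29 in gene bodies, 44 of 63 in flanks and 10 of 14 at other genes' starts. Of all tested peaks within 3 kb of a coding start, 55.8% were higher. That share is a background for the start classes only and was not matched for level.

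No member peak was called, with a smallest adjusted p of 0.998 by edgeR, where 0.00134% of all tested peaks were called. At an unadjusted p under 0.05 there were 3 member peaks, all higher in KO, 2.27% of those tested. The background was 1.45% of peaks higher and 2.79% lower at that limit, so the count was near it. The smallest p, 0.0198 unadjusted, was that of a 1.21 kb peak at chr15:102238915-102240123, 7.58 kb upstream of Itgb7 and over a coding exon of Rarg. It held 4.52 and 8.93 CPM in Ctrl and 14.2 and 17 CPM in KO, a log2 fold change of 1.18 (SE 0.505), from 10 and 30 counts in Ctrl and 38 and 71 counts in KO. The second was the 7.62 kb peak at chr9:114471056-114478674 in the Ccr4 window, with 98.2 and 97.6 CPM in Ctrl and 153 and 138 CPM in KO, a log2 fold change of 0.57 (SE 0.271, unadjusted p of 0.0346). Its Ctrl libraries were nearly equal and both KO libraries were well above them. The third, at chr9:114469525-114470723 beside it, held 9.5 and 6.55 CPM in Ctrl and 18.3 and 13.2 CPM in KO, a log2 fold change of 0.98 (SE 0.496, unadjusted p of 0.0491). DESeq2 left 1 of the 3 under that limit, the 7.62 kb peak near Ccr4, and total counts as library size also left 1, the peak upstream of Itgb7.

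The central 300 bases of the 2 narrow peaks are shown because these peaks had the largest fold changes of the 3, on the plus strand of GRCm38.p6 with motif matches in capitals.
Itgb7 upstream peak, chr15:102239370-102239669: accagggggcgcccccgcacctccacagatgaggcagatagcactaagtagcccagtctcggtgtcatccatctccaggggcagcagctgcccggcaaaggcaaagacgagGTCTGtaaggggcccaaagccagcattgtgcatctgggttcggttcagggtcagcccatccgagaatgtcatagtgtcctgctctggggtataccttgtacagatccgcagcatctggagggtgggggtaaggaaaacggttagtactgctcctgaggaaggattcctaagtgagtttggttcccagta
Ccr4 downstream peak, chr9:114469975-114470274: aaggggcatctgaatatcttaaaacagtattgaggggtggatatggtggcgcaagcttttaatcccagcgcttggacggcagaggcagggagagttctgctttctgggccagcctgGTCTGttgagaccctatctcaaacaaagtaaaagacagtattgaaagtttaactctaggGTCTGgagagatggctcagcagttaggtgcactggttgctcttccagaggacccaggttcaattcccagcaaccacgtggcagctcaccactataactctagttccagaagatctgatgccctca
The first, at 56.7% GC, overlaps a coding exon of Rarg, and the second, at 49.3% GC, lies in an intron of Glb1. The capitals are SMAD letters in both, which 49.6% of all promoters of that length also hold.

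At 6 of 10 members the 2 libraries of at least 1 genotype differed by more than the KO minus Ctrl log2 fold change. That sets the larger of 2 ratios of single libraries beside a difference fitted over 2 libraries per group. The share over all windows was not taken. The larger replicate difference was greatest at Cxcr4. There Ctrl replicate 2 was below Ctrl replicate 1 by a log2 ratio of -0.62, and KO replicate 2 below KO replicate 1 by -0.37. Gpr15 moved the same way (-0.46 and -0.38), and Cxcr5 (0.42 and 0.55) and Itgb7 (0.42 and 0.47) the opposite way. Replicate 2 minus replicate 1 had the same sign in both genotypes at 8 of 10 members, as it had in 76% of all tested windows. Taken at the same replicate number, KO was above Ctrl for both numbers at all 10 members, where 31% of all tested windows and 69.6% of those in the top decile were. Those ratios were 0.32 and 0.31 at Ccr4 and 0.34 and 0.47 at Cxcr5, against 0.03 and 0.1 at Ccr8 and 0.015 and 0.27 at Cxcr4.

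**Figure D5:**
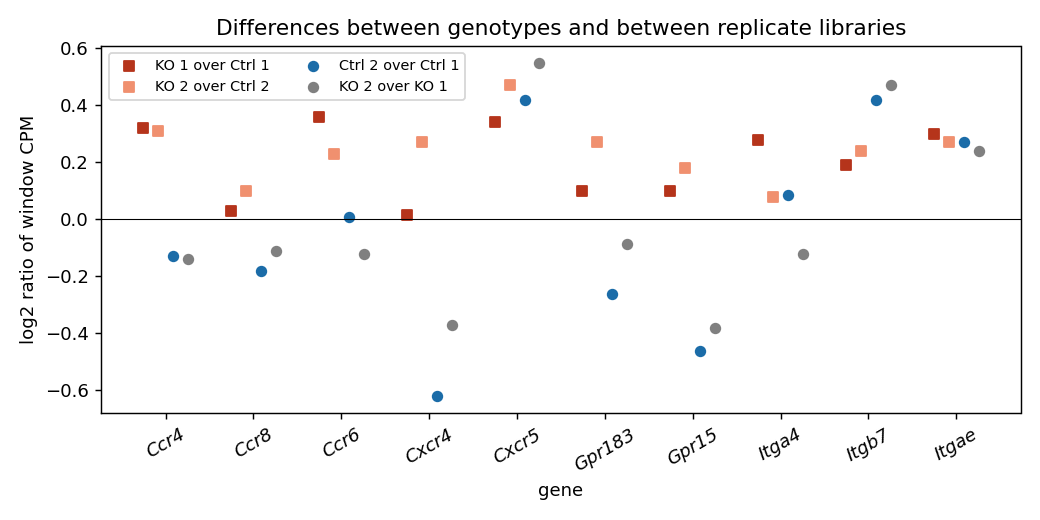
Log2 ratios of window CPM (y axis) at each gene between genotypes at the same replicate number (squares) and between replicates of a genotype (circles). All squares are above 0, from 0.015 at Cxcr4 to 0.47 at Cxcr5, while the circles run from -0.62 at Cxcr4 to 0.55 at Cxcr5.

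Related genes that were not members gave a setting for these values. Of 19 other chemokine receptors, 17 were tested, 12 were higher and 5 lower in KO, with a median log2 fold change of 0.19, and the 2 with an unadjusted p under 0.05 were Ccr9 and Cxcr6. Ccr9, the small intestinal homing receptor, held 224 and 210 CPM in Ctrl and 336 and 346 CPM in KO (log2 fold change 0.66, adjusted p = 1), and Cxcr6 held 194 and 184 CPM in Ctrl and 266 and 310 CPM in KO (0.61, adjusted p = 1). Cxcr3 held 48.9 and 53.6 CPM in Ctrl and 67.4 and 71.6 CPM in KO. Of 23 other integrin subunits, 22 were tested, 14 were higher and 8 lower, with a median of 0.042 and none under that limit. Of 18 lipid and other chemoattractant receptors and homing molecules, 14 were higher and 4 lower with a median of 0.16, again with none. Of 15 ligands and partners of the members, 12 were tested, 7 were higher and 5 lower with a median of 0.064, and Fn1, a matrix ligand of Itga4 integrins, was the 1 under that limit, with 52.5 and 44.0 CPM in Ctrl and 24.6 and 24.9 CPM in KO (log2 fold change -0.96, adjusted p = 1). No gene of these lists was called. The members' median of 0.20 lay beside the 0.19 of the other chemokine receptors and above the 0.16, 0.064 and 0.042 of the other lists. The lists were not matched for level. Of the 10 members, 7 were in the top decile of windows, where the median of all windows was 0.18. The part of level in the order of the lists was not tested.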

How the data were processed

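H3K27ac CUT&Tag libraries of 4 pools of large intestinal Treg cells were analysed, 2 per genotype. Values were used as deposited, as raw counts of reads in each merged peak. According to the methods of the study, the authors checked reads with FastQC, trimmed them, aligned them to mm10 with Bowtie2, kept unique reads, removed duplicates, called peaks with MACS2 at p 0.01 against IgG, merged the peaks of all libraries and counted reads with bedtools. Versions are not given in the sources used here. Since peaks were called on the compared libraries, the peak set depends on them. Even numbers made up 56.4% to 60.3% of the counts from 1 to 8, as when both mates of a pair are counted, so independent fragments may be fewer than counts.

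File starts were read as 0-based and raised by 1 base. Peaks and gene windows that reached 10 counts in 2 or more libraries entered glmQLFTest of edgeR 4.0.16 (R 4.3.3), KO against Ctrl without covariates, with library sizes after TMM from the tested peaks and Benjamini-Hochberg adjustment over 74550 peaks or 16106 windows. The peak fit estimated an infinite prior, so a peak's own replicate spread did not enter, and the window fit a prior of 7.43 degrees of freedom. SE were derived from the fold change and the F statistic, and 95% intervals from SE. Nothing in the labels ties replicates beyond separate pools. The p-values of windows rest on the spread between 2 pools per group together with that prior, and those of peaks on a spread shared across peaks. Alternatives were DESeq2 1.42.0, other scalings and filters, a robust fit, other windows, leaving out sex chromosomes or each library, the replicate number as a block and, chosen after seeing the data, halved counts. The fits were also run on simulated counts, with planted changes far larger than those of the members. That run does not bear on differences of the size measured here. Members, gene lists, markers and motifs were chosen with earlier results of these data known. For each member the text names the strongest peak within 3 kb of a start, the strongest peak, or the peak of the smallest p, further peaks of an unadjusted p under 0.05, and neighbouring peaks chosen after their values were seen. A further list of cell type markers is not reported here, for a reason unrelated to its values.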

Additional observations from a re-analysis of the deposited data

How the results depend on the processing

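No member window was called in any fit without the replicate block. Peaks called over the whole table, 1 in the reported fit, were 3 with the loess offset, 0 with DESeq2, 0 with no count filter, 0 with at least 50 counts, 0 with halved counts, and 0 to 1 when a library was left out (0 without either Ctrl library or KO replicate 2). Member peaks at an unadjusted p under 0.05, 3 as reported, were 1 with total counts as library size, 1 with DESeq2, 1 with no count filter, 0 with at least 50 counts and 1 to 7 without a library, highest without Ctrl replicate 2 and lowest without KO replicate 2. Member windows under that limit were 0 to 1 without a library, the 1 being Cxcr5 without KO replicate 1. The median log2 fold change of the members, 0.20, was 0.14 with total counts, 0.14 with halved counts, 0.096 with the loess offset, 0.079 with at least 50 counts, and 0.17 to 0.24 without a library.

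The sign turned in 13 comparisons outside the fits without a library. With the loess offset the windows of Gpr15, Ccr8 and Gpr183 were at -0.048, -0.043 and -0.037, the strongest Gpr15 peak at -0.13, and the TSS peaks of Ccr8, Ccr4, Ccr6, Cxcr4 and Gpr183 at -0.081, -0.089, -0.022, -0.05 and -0.11. With at least 50 counts the Ccr8 window was at -0.048, the strongest Gpr15 peak at -0.0039, and the TSS peaks of Ccr6 and Cxcr4 at -0.013 and -0.0085. Without a library, windows ranged from -0.09 to 0.37 at Gpr15, -0.021 to 0.15 at Ccr8, -0.16 to 0.45 at Cxcr4 and -0.072 to 0.45 at Itgb7, and peaks from -0.16 to 0.29 (strongest of Gpr15), -0.025 to 0.24 (TSS of Ccr6), -0.24 to 0.53 (TSS of Cxcr4), -0.13 to 0.53 (strongest of Cxcr5) and -0.042 to 0.74 (TSS of Itgb7). The cause was not tested.

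In the labels, Ctrl and KO replicates share only a number, and whether it marks a shared litter or day is not stated. Deviations of Ctrl 1 and KO 1 correlated at 0.24 over 74550 peaks, and with 2 pairs this does not establish pairing. With the replicate block, which leaves 1 residual degree of freedom, 211 peaks and 1632 windows were called over the whole table. At an unadjusted p under 0.05 there were 5 of 10 member windows and 17 of 132 tested member peaks in that fit. Over the whole table, 3664 of 16106 tested windows and 6966 of 74550 tested peaks passed the same unadjusted limit. Cxcr5 (0.41, adjusted p = 0.00018), Ccr4 (0.31, adjusted p = 0.00627) and the 7.62 kb peak near Ccr4 (0.57, adjusted p = 0.0331) were then called by edgeR, where the other fits gave adjusted p from 0.994 to 1 for the 2 windows and from 0.886 to 1 for the peak.

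At 2 pools per group the 95% intervals of the member windows reach from -0.5 to 0.99 on the log2 scale, so differences of the size measured could not be resolved.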
